A study of Mus musculus with 20 samples.

Results

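M1P is a cell line that grew out of a primary mammary tumor, and it was compared here with E1KD, the cells from which that tumor formed. E1KD cells are NMuMG cells, an epithelial line from the normal mouse mammary gland, that carry an shRNA against hnRNP E1. The M1P cells carry the same shRNA. According to the study's methods, E1KD cells were injected into the mammary fat pad of NOD/SCID mice, the M1P line was isolated from a primary tumor and the L1P line from lung metastases, and the recovered cells were put back into culture under puromycin. RNA was extracted from cultures in vitro in every group. Of the 20 libraries of the series, the 2 of M1P and the 2 of E1KD entered the comparison, and 14231 of 54986 genes reached at least 1 count per 1e6 reads (CPM) in 2 of these 4 libraries and were tested. The comparison asks which transcripts differ between the injected cells and the cells recovered after growth as a tumor. M1P is a single line, so what belongs to that line and what belongs to tumor growth cannot be told apart. The labels do not say that the duplicates of a line are separate cultures, so the spread that p-values measure may be technical. That spread was pooled over the duplicates of all 20 libraries and not taken from these 4 alone.

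hnRNP E1, the product of Pcbp1, is an RNA-binding protein that holds certain transcripts back from translation. Its loss starts an epithelial-mesenchymal transition (EMT), in which epithelial cells loosen their junctions, take on a mesenchymal form and become able to migrate. Tumors grown from such cells select for traits that serve growth in a tissue, among them signaling from growth factor receptors, exchange with the extracellular matrix and tolerance of low oxygen.

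The targeted gene was read first. In NMuMG, Pcbp1 reached 287 and 312 CPM, with 16.6 and 14.2 CPM in E1KD, and 26.5 and 27.6 CPM in M1P. It was still low in M1P, and its log2 fold change from E1KD was 0.78 (SE 0.09), under the limit of 1 used here. After rescaling by median-of-ratios factors, described in the next paragraph, the log2 fold change of Pcbp1 was 0.98, also under the limit. Lncenc1, the pluripotency-associated lncRNA Platr18, had 17.9 and 14.6 CPM in E1KD and 25.7 and 26.2 CPM in M1P. Its log2 fold change was 0.65 (SE 0.09), or 0.86 with median-of-ratios factors, under the limit in both cases. Sema4f, a semaphorin that guides axons, went the other way, with 19.999 and 15.6 CPM in E1KD and 3.75 and 3.86 CPM in M1P. That is a 4.67-fold lower mean, and it passed the test (log2 fold change -1.96, SE 0.11, adjusted p = 2.9e-09 from limma). With only the 4 libraries in the fit, the adjusted p from limma was 0.002 for Sema4f and 0.109 for Lncenc1.

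Before the other results, 1 pair of libraries has to be described. The E1KD libraries stood apart from each other: the median log2 ratio of replicate 1 to replicate 2 was 0.32 with an SD of 0.37, and 802 of the genes tested differed more than 2-fold. In M1P the median was -0.0034, the SD 0.09 and the number of such genes 0. The tests pool the spread of all conditions, so their p-values can understate that of E1KD. E1KD replicate 1 also summed to 728645 CPM over all genes, against 567409 in replicate 2 and 568493 and 568661 in M1P. The values that 1 read was worth give 50.8 and 54.1 M (1e6) reads for the E1KD libraries and 57.3 and 56.4 M for the M1P libraries, so 3 reads were worth between 0.0524 and 0.0591 CPM. An 18S ribosomal RNA locus, Rn18s-rs5, had 4167 and 1433 CPM in E1KD and 468 and 528 CPM in M1P. Every gene was therefore tested with the deposited scaling and again after rescaling by median-of-ratios factors (1.34 and 0.979 for E1KD, 0.984 and 0.987 for M1P), which moved the median log2 fold change of all genes from -0.21 to -0.01.

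With the deposited scaling, 610 of the 14231 genes (4.29%) passed 2 limits, an unadjusted p below 0.001 and a log2 fold change of 1 or more in either direction, and are referred to as called. Of these, 198 were higher and 412 (2.9%) lower in M1P, and the largest adjusted p among them was 0.00323 (limma). With median-of-ratios factors the number was 609 (4.28%) and the balance was even, at 310 higher (2.18%) and 299 lower (2.1%). The genes called with both scalings numbered 494 (3.47%), with 198 higher (1.39%) and 296 lower (2.08%), and they are the ones described as called, risen or fallen from here on. In 65.7% of the genes tested the M1P and E1KD libraries did not overlap, so a lack of overlap alone sets few genes apart, and an exact permutation test of 1 gene with 2 libraries against 2 has 0.333 as its smallest possible two-sided p. Without E1KD replicate 1, 195 of the 198 and 273 of the 296 were called again with both scalings. Without E1KD replicate 2 the number called with the deposited scaling was 1835, 189 higher and 1646 lower, and it held 157 of the 198 and 296 of the 296. Protein-coding genes made up 178 of the increases and 265 of the decreases.

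**Figure D1:**
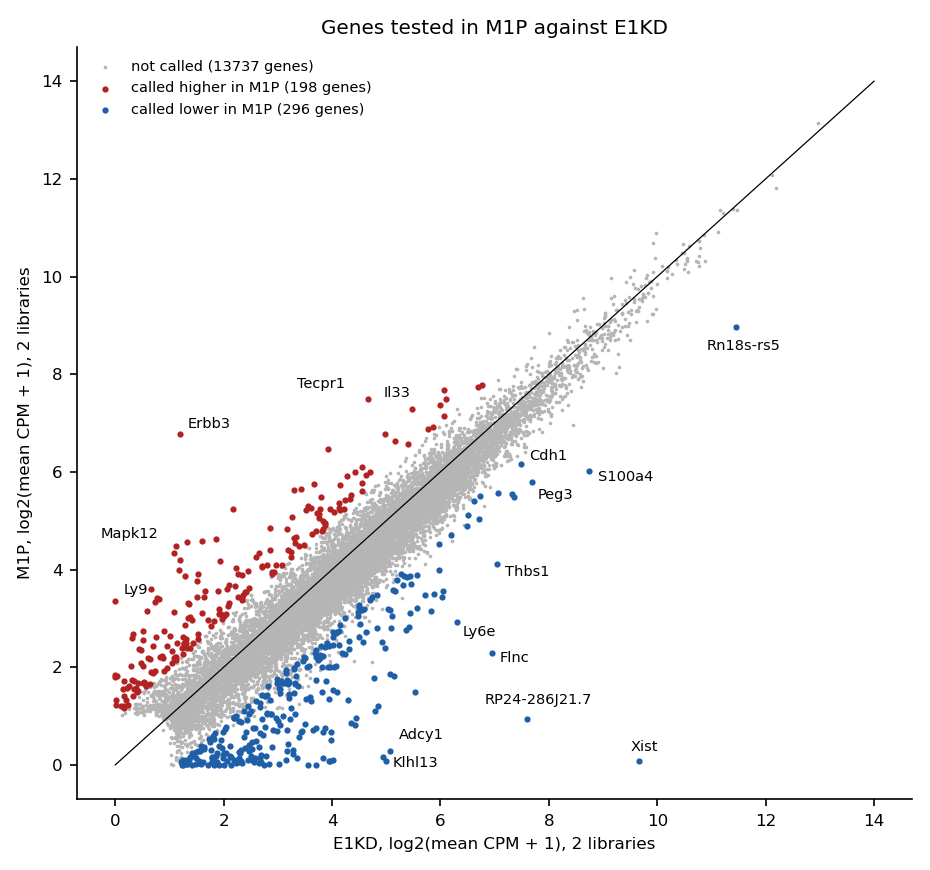
Mean expression of each of the 14231 genes tested in E1KD (horizontal) and M1P (vertical), as log2(mean CPM + 1) over 2 libraries, with the line of equal values. Red points are the 198 genes called higher and blue points the 296 called lower in M1P with both scalings. The red and blue points lie off the line on either side, with Xist at the far lower right and Erbb3 farthest above it.

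Erbb3 had the largest increase of all genes called on the log2(CPM + 1) scale. It encodes a receptor of the EGF receptor family that binds neuregulins and signals in a pair with ErbB2. Its gene occupies positions 128567523 to 128589652 of chromosome 10, reverse strand, in GRCm38. Its values were 1.46 and 1.11 CPM in E1KD and 108 and 108 CPM in M1P, so the M1P mean was 84.3-fold that of E1KD (log2 fold change 5.58, SE 0.11, adjusted p = 3.3e-14 from limma). The E1KD and M1P duplicates were far apart, and the level also exceeded the 7.20 CPM of NMuMG, while L1P held 157 CPM. Of the 11 members of the EGF family list that were tested, Erbb3 was the only one called. Egfr had 89.8 and 72.5 CPM in E1KD and 119 and 119 CPM in M1P (log2 fold change 0.56), and Errfi1, a feedback inhibitor of these receptors, 87.7 and 77.4 CPM in E1KD and 62.6 and 64.7 CPM in M1P (-0.37).

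The next increases were in genes of several kinds. Mapk12, the stress kinase p38γ, had 1.38 and 0.961 CPM in E1KD and 21.75 and 21.001 CPM in M1P, 18.3-fold higher. Ly9, an immune cell receptor of the SLAM family, had 0 reads in both E1KD libraries and 9.06 and 9.55 CPM in M1P, at least 163-fold higher if 3 reads are allowed per E1KD library. Magea8, of the cancer-testis antigens on the X chromosome, had 1.28 and 0.979 CPM in E1KD and 19.1 and 19.6 CPM in M1P. Kcnab2, a subunit of voltage-gated potassium channels, had 1.496 and 1.52 CPM in E1KD and 22.6 and 22.8 CPM in M1P. The duplicates of each line lay close together for all of these. Arap3, a GTPase-activating protein, had 1.42 and 1.16 CPM in E1KD and 16.98 and 17.55 CPM in M1P. Tecpr1, which acts where autophagosomes meet lysosomes, was the most abundant of the 10 largest increases, with 28.7 and 20.1 CPM in E1KD and 179 and 180.1 CPM in M1P (7.34-fold). Thsd7a, a membrane protein with thrombospondin repeats, rose 11.4-fold, Clstn3, a synaptic adhesion protein, 19.3-fold, and RP24-548A15.1, a protein-coding gene of chromosome 7, 10.5-fold. Tecpr1 and Arap3 had 24.9 and 24.3 CPM in NMuMG, so that of these 2 Arap3 was below NMuMG in M1P and Tecpr1 above it.

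Xist had the largest decrease. This lncRNA coats and silences 1 X chromosome in female cells, and its gene spans positions 103460375 to 103483217 of the X chromosome, reverse strand. It had 857 and 758 CPM in E1KD and 0.0698 and 0.0354 CPM in M1P, which is the worth of a few reads (log2 fold change -9.58, SE 0.09, adjusted p = 1.6e-17 from limma). NMuMG had 971 CPM and L1P 0.0586 CPM. The protein-coding genes of the X chromosome did not follow: over 264 of them with at least 5 CPM, the median log2 fold change on the median-of-ratios scale was -0.01, and 48.5% were above 0. A pair of X-linked genes among the largest changes moved in opposite directions, Magea8 up and Klhl13, an adaptor of Cul3 ubiquitin ligases, down from 33.8 and 28.3 CPM to 0.0873 and 0.0354 CPM.

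Other genes were lost almost completely. Adcy1, an adenylyl cyclase, had 35.5 and 29.9 CPM in E1KD and 0.192 and 0.230 CPM in M1P, 155-fold lower. Chst11, which sulfates chondroitin, fell from 31.4 and 28.1 CPM to 0.105 and 0.142 CPM. Their NMuMG means were 0.0266 and 0.00943 CPM, so their M1P values lay near those of the parental line. Flnc, the actin cross-linker filamin C, had 153 and 91.4 CPM in E1KD and 4.07 and 3.67 CPM in M1P, 31.6-fold lower, and its means were 0.0271 CPM in NMuMG and 0.0781 CPM in L1P. Adora1, the adenosine A1 receptor, had 16.0 and 14.4 CPM in E1KD and 0.122 and 0.0177 CPM in M1P. Dio3, the imprinted deiodinase that inactivates thyroid hormone, had 15.1 and 14.3 CPM in E1KD and 0.0873 and 0.0354 CPM in M1P. For Adora1 and Dio3, NMuMG had 75.4 and 36.8 CPM, and M1P was lower than both earlier lines. Vat1l fell as well, from 16.4 and 12.4 CPM to 0.0698 and 0.0354 CPM. RP23-453N3.5, a pseudogene with 49.1 and 40.8 CPM in E1KD and 1.88 and 1.71 CPM in M1P, matched Akr1b3, the aldose reductase gene, at 99.7% of 951 bases. Akr1b3 itself had 17.7 and 11.9 CPM in E1KD and 0.524 and 0.656 CPM in M1P, and reads of the 2 cannot be told apart with certainty.

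**Figure D2:**
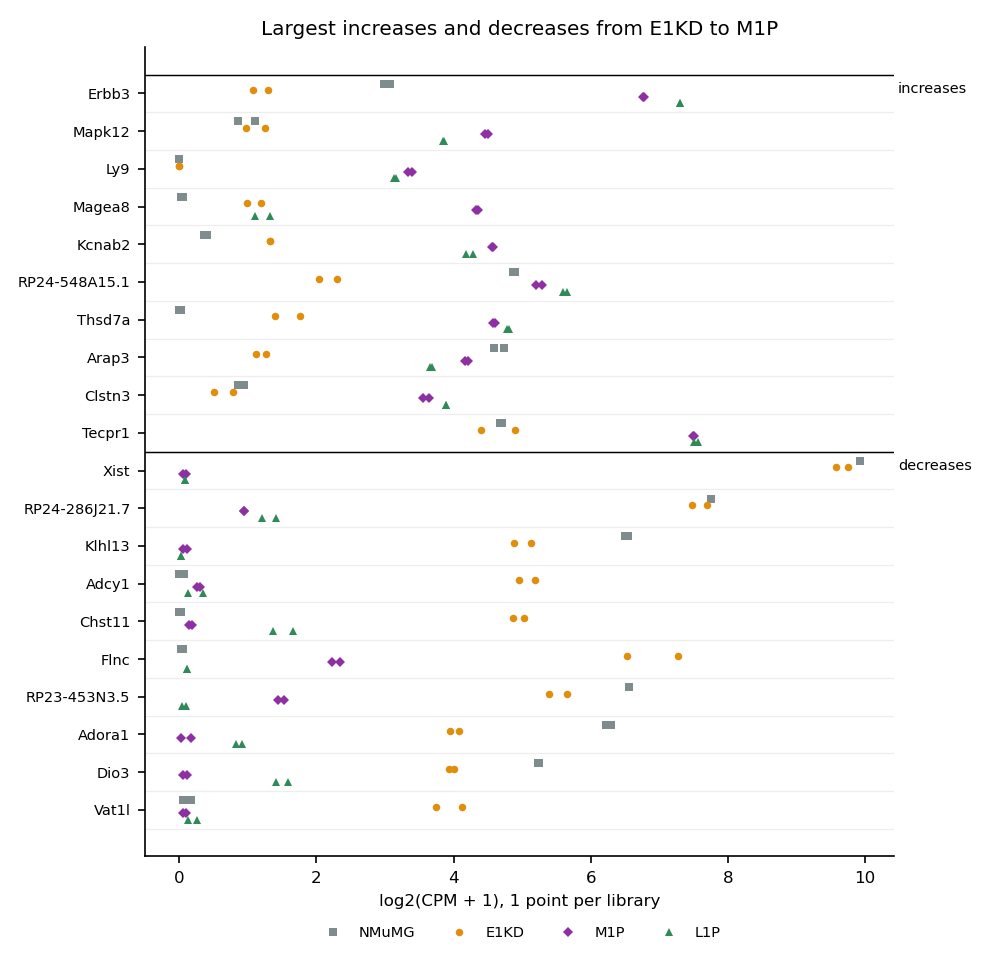
The 10 largest increases and 10 largest decreases among genes called with both scalings, non-overlapping libraries and a higher mean of at least 5 CPM, as log2(CPM + 1) with 1 point per library. Every M1P point (purple) lies clear of the E1KD points (orange), and L1P (green) is drawn with NMuMG (gray) for reference.

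Among long noncoding genes, 3 of the 5 largest decreases shared sequence. RP24-286J21.7 had 178 and 205 CPM in E1KD and 0.925 and 0.922 CPM in M1P, 207-fold lower. WI1-49P9.2 had 11.1 and 6.23 CPM in E1KD and 0.140 and 0.195 CPM in M1P, and RP23-281M13.2 9.35 and 6.71 CPM in E1KD and 0.175 and 0.266 CPM in M1P. Transcripts of RP24-286J21.7 and WI1-49P9.2 were identical at 99.1% of 2508 aligned bases, and those of RP24-286J21.7 and RP23-281M13.2 at 99.3% of 1115. The 3 loci, on chromosomes 8, 3 and 10, are therefore not independent measurements. RP23-392O3.2, which lies on chromosome 12 with Dio3, had 7.20 and 5.16 CPM in E1KD and 2 and 0 reads in M1P. The 5 largest noncoding increases were smaller. AC107822.5 rose 3.598-fold, to 18.2 and 17.9 CPM, but it overlaps Adam8 on the other strand, and how strand was used in counting is not given in the sources used here. RP23-281H4.5 rose to 2.06 and 2.48 CPM, RP23-104G16.1 to 4.99 and 5.25 CPM, and RP24-544J6.4 to 4.36 and 4.87 CPM. RP24-286N17.2 rose to 3.61 and 3.44 CPM, and like RP24-286J21.7 and Foxf1 it lies within AC114005.5, a gene of the same strand with up to 49.5 CPM, which makes all 3 values uncertain.

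The changes were then read in lists of genes. Each count that follows is to be set against all genes tested, of which 3.47% were called, 1.39% higher and 2.08% lower. Hox genes, the transcription factors that fix position along the body axis, fell in larger number than any other list: 0 of the 12 tested were higher and 7 lower. Their median log2 fold change was -1.61 (-1.49 with median-of-ratios factors), against -0.21 and -0.01 for all genes tested. All 6 tested members of the Hoxb cluster on chromosome 11 fell, by log2 fold changes between -2.75 and -1.56. Hoxb7 had 5.98 and 5.51 CPM in E1KD and 0 reads in both M1P libraries, at least 109-fold lower with 3 reads allowed per library. Hoxb6 had 5.47 and 5.04 CPM in E1KD and 0.314 and 0.266 CPM in M1P, Hoxb3 4.53 and 3.51 CPM and then 0.245 and 0.230 CPM, and Hoxb13 7.40 and 6.32 CPM and then 0.960 and 0.957 CPM. These 3 had been at 8.54 to 10.6 CPM in NMuMG. Of the 6 Hoxa genes tested on chromosome 6, Hoxa7 was the only one called, with 5.12 and 4.30 CPM in E1KD and 0.105 and 0.177 CPM in M1P. Hoxa10, with 11.04 and 8.65 CPM in E1KD and 8.47 and 8.95 CPM in M1P, was not. The counts were the same without either E1KD library.

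Collagen genes also fell, with 5 of 11 lower and 0 higher, a median of -1.03 (-0.91 with median-of-ratios factors). Col12a1, a collagen that bridges fibrils, had 14.4 and 9.63 CPM in E1KD and 0.663 and 0.709 CPM in M1P, 17.5-fold lower (log2 fold change -2.93, SE 0.13, adjusted p = 2.9e-10 from limma). Col5a1, which seeds collagen fibrils, fell from 15.0 and 11.2 CPM to 1.75 and 1.86 CPM. Col6a1 and Col6a2, subunits of the beaded filaments around cells, fell 3.24-fold and 3.44-fold. Col4a4 was the fifth, but its log2 fold change was -0.98 without E1KD replicate 1, under the limit. The basement membrane genes Col4a1 and Col18a1 were the most abundant of those not called, at 94.2 and 59.5 CPM in E1KD and 35.7 and 36.5 CPM in M1P for Col4a1 and 169 and 124 CPM, then 84.6 and 85.7 CPM, for Col18a1. Of these, Col4a1 was called with the deposited scaling alone. A pair of genes that bear on collagen, named after their values were seen, rose instead. Serpinh1, the collagen chaperone HSP47, had 71.5 and 61.2 CPM in E1KD and 203 and 206 CPM in M1P, and Ddr2, a receptor for fibrillar collagens, 34.0 and 26.7 CPM in E1KD and 107 and 110.4 CPM in M1P.

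Other matrix and adhesion genes gave smaller counts. Of 11 matrix glycoproteins and proteoglycans, 2 fell. They were Thbs1, a matricellular inhibitor of blood vessel growth, with 152 and 110.2 CPM in E1KD and 15.8 and 16.996 CPM in M1P, and the glypican Gpc1, with 47.1 and 36.2 CPM in E1KD and 6.13 and 6.11 CPM in M1P. Spp1, or osteopontin, fell with the deposited scaling alone, from 693 and 553 CPM to 279 and 286 CPM, while Fbln2 had 545 and 423 CPM in E1KD and 513 and 523 CPM in M1P. Among 19 integrins and laminins, Itga2, a collagen-binding integrin, rose from 68.3 and 56.5 CPM to 167 and 162 CPM, and Lamb3, a laminin chain of epithelial basement membranes, fell from 41.5 and 22.2 CPM to 7.70 and 8.61 CPM. Without E1KD replicate 1, 3 of the 19 were higher and 1 lower, and without E1KD replicate 2, 1 was higher and 3 lower. Among 15 matrix proteases and inhibitors, Adam8 and the collagenase Mmp13 rose 2.73-fold and 2.39-fold and the gelatinase Mmp2 fell 9.02-fold. Both increases were lost with only the 4 libraries in the fit (adjusted p = 0.0243 and 0.0337 from limma, with unadjusted p above the limit). The log2 fold change of Mmp13 was also under the limit without E1KD replicate 2 (0.84) and without M1P replicate 1 (0.98).

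Epithelial and mesenchymal markers did not move as a block. Of 14 epithelial junction and adhesion genes 1 was called, Cdh1 (E-cadherin), which was lower in M1P: 205 and 149 CPM in E1KD against 71.5 and 70.1 CPM in M1P (log2 fold change -1.29, SE 0.10, adjusted p = 1.7e-07 from limma). Dsp, a desmosome gene, had 351 and 298 CPM in E1KD and 404 and 408 CPM in M1P and was not called. Of 12 mesenchymal regulators and markers, 3 fell and 0 rose. S100a4, a calcium-binding protein of motile cells, had 544 and 313 CPM in E1KD and 63.2 and 64.7 CPM in M1P, near the 61.6 CPM of NMuMG. Fn1, fibronectin, fell from 206 and 119 CPM to 43.8 and 44.0 CPM, and Foxf1, a mesenchymal transcription factor, from 3.90 and 3.38 CPM to 0.0524 and 0.0709 CPM. Vim, the mesenchymal intermediate filament, had 1470.1 and 1122 CPM in E1KD and 1283 and 1288 CPM in M1P, and Cdh2 (N-cadherin) 94.6 and 58.3 CPM and then 62.9 and 60.2 CPM. Of 8 epithelial regulators, Foxa1, a pioneer factor of luminal cells, rose from 2.34 and 1.92 CPM to 10.7 and 10.9 CPM, and Ehf, an epithelial Ets factor, fell from 16.99 and 12.6 CPM to 0.367 and 0.496 CPM.

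Receptors and ligands of the Wnt pathway, which patterns tissues and keeps stem cells, were called in 6 of 20 cases. That is 30%, against 3.47% of all genes tested. Wnt10a rose from 1.32 and 1.22 CPM to 14.3 and 15.7 CPM, 11.8-fold (log2 fold change 2.82, SE 0.07, adjusted p = 8.6e-13 from limma). The other ligands that passed fell, Wnt7a from 10.1 and 7.47 CPM to 0.244 and 0.230 CPM and Wnt4 from 11.97 and 9.81 CPM to 3.05 and 3.08 CPM. The receptors Lgr5 and Fzd1 and the ligase Rnf43, which removes Wnt receptors from the surface, fell too. Rnf43 had 33.1 and 28.2 CPM in E1KD and 4.19 and 4.36 CPM in M1P. Wnt7b, 1 of the 2 most abundant members not called, had 127 and 109 CPM in E1KD and 116 and 112 CPM in M1P. With median-of-ratios factors 3 of the 20 were higher. In the list median the pathway lay close to all genes (-0.25, or -0.04 with median-of-ratios factors).

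**Figure D3:**
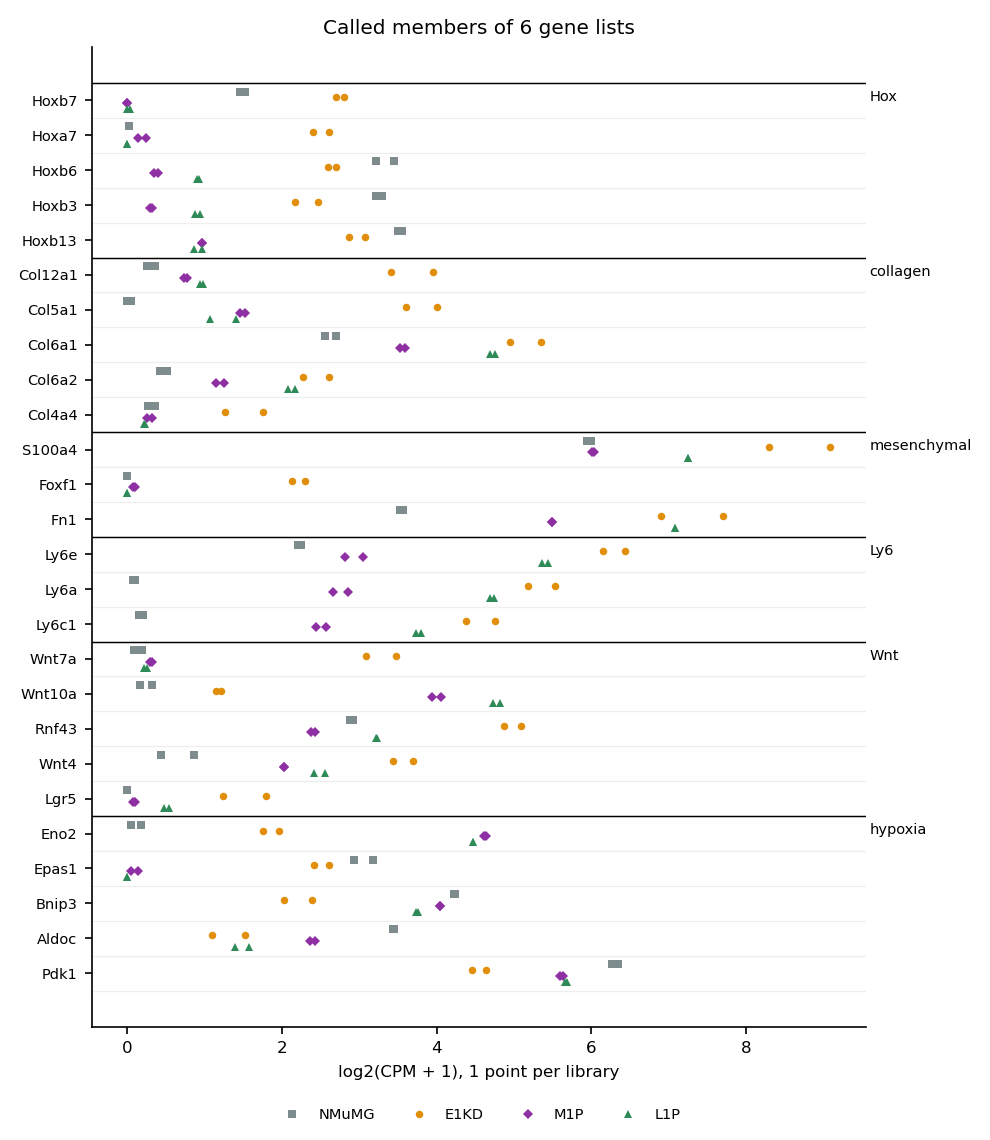
Up to 5 called members each of the Hox, collagen, mesenchymal, Ly6, Wnt and hypoxia lists, as log2(CPM + 1) with 1 point per library. M1P points (purple) lie left of the E1KD points (orange) for every member shown except Wnt10a, Eno2, Bnip3, Aldoc and Pdk1.

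Genes of axon guidance and repulsion were called in both directions. Of 20 semaphorins, plexins and neuropilins, Sema4f was the 1 that fell, and Sema3b and Sema4a rose, from 2.13 and 1.18 CPM to 6.23 and 7.37 CPM and from 8.15 and 5.53 CPM to 16.1 and 16.3 CPM. Sema4a was not called with only the 4 libraries in the fit or without E1KD replicate 2 (log2 fold change 0.91), which left 1 increase. Of 24 ephrins, netrins, Slit-Robo members and neurotrophins, 3 fell and 1 rose. Robo1, the receptor of Slit repellents, had 6.59 and 4.27 CPM in E1KD and 2 and 3 reads in M1P. Ephb3, an ephrin receptor, fell from 3.58 and 2.75 CPM to 0.0873 and 0.0177 CPM, and Ntn1, the secreted guidance cue netrin 1, from 1.44 and 1.28 CPM to 0.0524 and 0.0532 CPM. Epha5 rose from 0.905 and 0.979 CPM to 4.54 and 4.34 CPM, although a pseudogene on its other strand had up to 6.83 CPM. Shank2, a scaffold of synapses named after its values were seen, fell from 49.7 and 42.8 CPM to 7.80 and 8.86 CPM.

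Surface antigens of the Ly6 family fell. In the list of Ly6 and stem cell surface antigens 3 of 11 were lower and 0 higher, and all 3 lie on chromosome 15. Ly6e had 85.7 and 70.0 CPM in E1KD and 6.02 and 7.25 CPM in M1P, 11.7-fold lower. Ly6a, the stem cell antigen Sca-1, had 45.4 and 35.2 CPM in E1KD and 5.32 and 6.22 CPM in M1P, and Ly6c1 25.9 and 19.9 CPM and then 4.96 and 4.41 CPM. Each was higher in L1P than in M1P, at 41.2, 25.3 and 12.6 CPM, a difference not tested here. Cd24a and Cd44, the antigens that are used to sort mammary stem-like cells, had 555 and 469.5 CPM and 129 and 110.3 CPM in E1KD and 279 and 280.1 CPM and 163 and 159.5 CPM in M1P, and neither was called.

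The list of hypoxia and glycolysis had the most increases among genes called with both scalings, although with median-of-ratios factors alone the p53 list had 6. Of 29 genes tested 4 rose and 1 fell, 17.2% against 3.47% of all genes. Eno2, the neuronal enolase, had 2.89 and 2.38 CPM in E1KD and 23.4 and 23.8 CPM in M1P, 8.94-fold higher (log2 fold change 2.76, SE 0.09, adjusted p = 1.0e-11 from limma). Bnip3, a mitophagy receptor and a known target of hypoxia-inducible factors (HIF), rose from 4.25 and 3.07 CPM to 15.5 and 15.4 CPM, though pseudogenes that match its transcript at 98.3% to 98.9% of the aligned bases had up to 10.3 CPM. Pdk1, a kinase that shuts pyruvate dehydrogenase, rose from 23.9 and 20.9 CPM to 48.8 and 47.4 CPM, and the aldolase Aldoc from 1.87 and 1.13 CPM to 4.14 and 4.38 CPM. NMuMG means were 17.8 CPM for Bnip3, 78.2 CPM for Pdk1 and 9.85 CPM for Aldoc, each above its M1P values. For Eno2 the NMuMG mean was 0.0837 CPM. The log2 fold changes of Pdk1 and Aldoc were 0.98 and 0.87 without E1KD replicate 2, which left 2 increases. Epas1, which encodes HIF-2α, fell, from 5.12 and 4.34 CPM to 0.105 and 0.0354 CPM. The most abundant glycolytic genes were not called: Pkm had 2189.5 and 1343 CPM in E1KD and 1521 and 1554 CPM in M1P, and Ldha 896 and 649 CPM and then 864 and 870.2 CPM. Both have pseudogene copies, for Pkm at 98.4% identity with up to 2648 CPM and for Ldha at 95.9% with up to 642 CPM, so these values may mix reads of gene and copy. The median of the list was 0.07 (0.29 with median-of-ratios factors).

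HIF binds DNA at a short core of which ACGTG is 1 form, and other forms were neither searched for nor marked. The promoters of the called members were searched for ACGTG on both strands. The windows were those of RefSeq in GRCm38.p6, from 250 bases before to 50 bases after a transcript start. These 5 letters are common: 6447 of 32851 windows held them (19.6%), as did at least 1 window of 30.2% of the 8288 tested genes with an entry and of 19 of the 27 genes of this list with one (70.4%). Of the 4 members that rose, Bnip3 and Aldoc had a match to ACGTG, and Eno2 and Pdk1 had no ACGTG in these windows. The promoters of Bnip3 (chr7:138909457-138909756, reverse strand) and Aldoc (chr11:78322823-78323122, forward strand) are shown because they are the increases with a match, with the matched letters in capitals. In Bnip3 the matches on the 2 strands overlap, and the match in Aldoc reads CACGT, which is ACGTG on the other strand.
Bnip3: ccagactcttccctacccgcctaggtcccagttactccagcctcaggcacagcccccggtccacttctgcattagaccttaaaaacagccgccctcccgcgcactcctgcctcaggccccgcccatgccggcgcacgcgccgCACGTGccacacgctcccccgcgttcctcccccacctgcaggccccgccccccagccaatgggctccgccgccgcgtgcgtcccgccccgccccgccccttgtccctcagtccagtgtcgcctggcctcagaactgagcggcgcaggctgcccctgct
Aldoc: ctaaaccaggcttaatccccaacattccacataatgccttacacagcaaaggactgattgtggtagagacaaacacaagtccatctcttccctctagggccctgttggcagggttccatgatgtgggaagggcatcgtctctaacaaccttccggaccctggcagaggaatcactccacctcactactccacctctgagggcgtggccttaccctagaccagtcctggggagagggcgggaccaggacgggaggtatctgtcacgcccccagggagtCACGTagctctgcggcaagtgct

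Signaling, stress and growth lists had 1 or 2 calls each, between 4.17% and 12.5% of their tested members against 3.47% of all genes, and a single call in a list is given for its gene and not as a result about the list. Of 24 p53 targets and CDK inhibitors 2 rose, Mdm2, the ligase that degrades p53, from 113 and 91.3 CPM to 212 and 212 CPM, and Trp53inp1 from 37.1 and 32.0 CPM to 102 and 93.7 CPM. With median-of-ratios factors 6 of the 24 were higher, Ccng1 among them, without E1KD replicate 1 the number was 4, and without E1KD replicate 2 Mdm2 was not called (log2 fold change 0.91), which left 1. Of 19 TGFβ and BMP ligands and receptors 2 fell, the inhibin subunit Inhbb from 45.4 and 40.3 CPM to 12.4 and 11.6 CPM and the coreceptor Tgfbr3 from 2.49 and 1.42 CPM to 0 and 3 reads. Tgfbr1 and Tgfbr2, the signaling receptors, were not called. Of 12 Notch pathway genes Hey1, a target of Notch, fell 3.64-fold, and without E1KD replicate 2 the number lower was 4. Of 23 growth factors and receptors of the FGF, PDGF, HGF, IGF and VEGF families Fgfr2 fell 6.05-fold, and its deposited span overlaps many expressed genes. In that list 3 were lower without E1KD replicate 2. Of 18 chemokines and cytokines Il33, an alarmin, rose from 47.5 and 40.0 CPM to 156 and 153 CPM, and of 12 antigen presentation genes and checkpoint ligands Tap1, the peptide transporter, rose from 0.827 and 0.517 CPM to 2.88 and 2.66 CPM. Of 24 genes of the ATF4 and amino acid response Aldh1l2 rose 7.35-fold, with a gene of up to 119 CPM on its other strand. Of 8 imprinted genes Peg3, a zinc finger gene expressed from the paternal copy, fell from 215 and 194 CPM to 54.1 and 54.4 CPM, and Usp29 beside it, named after its values were seen, fell from 5.06 and 4.62 CPM to 0.663 and 0.691 CPM.

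In 11 lists none of the tested members was called with both scalings by limma, and many members still had an unadjusted p under 0.05. That number was 4 of 8 keratins and intermediate filaments, 4 of 9 contractile genes, 10 of 16 TGFβ and BMP targets, 17 of 28 YAP and SRF targets and 9 of 19 interferon-stimulated genes. It was 11 of 25 genes of cholesterol and fatty acid synthesis, 11 of 21 of the NRF2 and glutathione list, 4 of 5 of the Platr and pluripotency list and 3 of 13 mitochondrially encoded genes. It was 34 of 39 cell cycle genes and 41 of 45 cytosolic ribosomal protein genes, against 8885 of all 14231 genes. The cell cycle list had a median log2 fold change of -0.59 (-0.38 with median-of-ratios factors) and the ribosomal list one of -0.68 (-0.47), both below all genes with either scaling. The counts of both lists moved with the E1KD library used: without E1KD replicate 2, 13 cell cycle and 30 ribosomal genes were called lower, and without E1KD replicate 1 the number was 0 in each. Without E1KD replicate 2 the number lower was also 2 of the keratin list, 3 of the NRF2 list, 2 of the TGFβ target list and 1 of the mitochondrial list, and without E1KD replicate 1 the number higher was 2 of the cholesterol list and 1 of the interferon list. With all libraries and the deposited scaling alone, 1 YAP and SRF target, 1 TGFβ target and 2 cell cycle genes were called lower. The YAP and SRF target was Ctgf, with 660 and 554 CPM in E1KD and 260 and 262 CPM in M1P. Its log2 fold change was -1.21, or -0.99 with median-of-ratios factors. With those factors alone, 2 genes of the cholesterol list and 1 of the interferon list were called higher. The ribosomal sums were 9408 and 4923 CPM in E1KD and 4518 and 4620 CPM in M1P. Of the 34 cell cycle genes with an unadjusted p under 0.05 (limma), 32 were lower and 2 higher, against 6736 and 2149 of all genes. The 2 higher ones, Mki67 and Ccnd1, were shown because they are the most abundant of the list, and they went against most of it. The proliferation marker Mki67 had 618 and 539 CPM in E1KD and 687 and 698 CPM in M1P, and Ccnd1, cyclin D1, 1060.2 and 881 CPM and then 1659 and 1644 CPM.

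**Figure D4:**
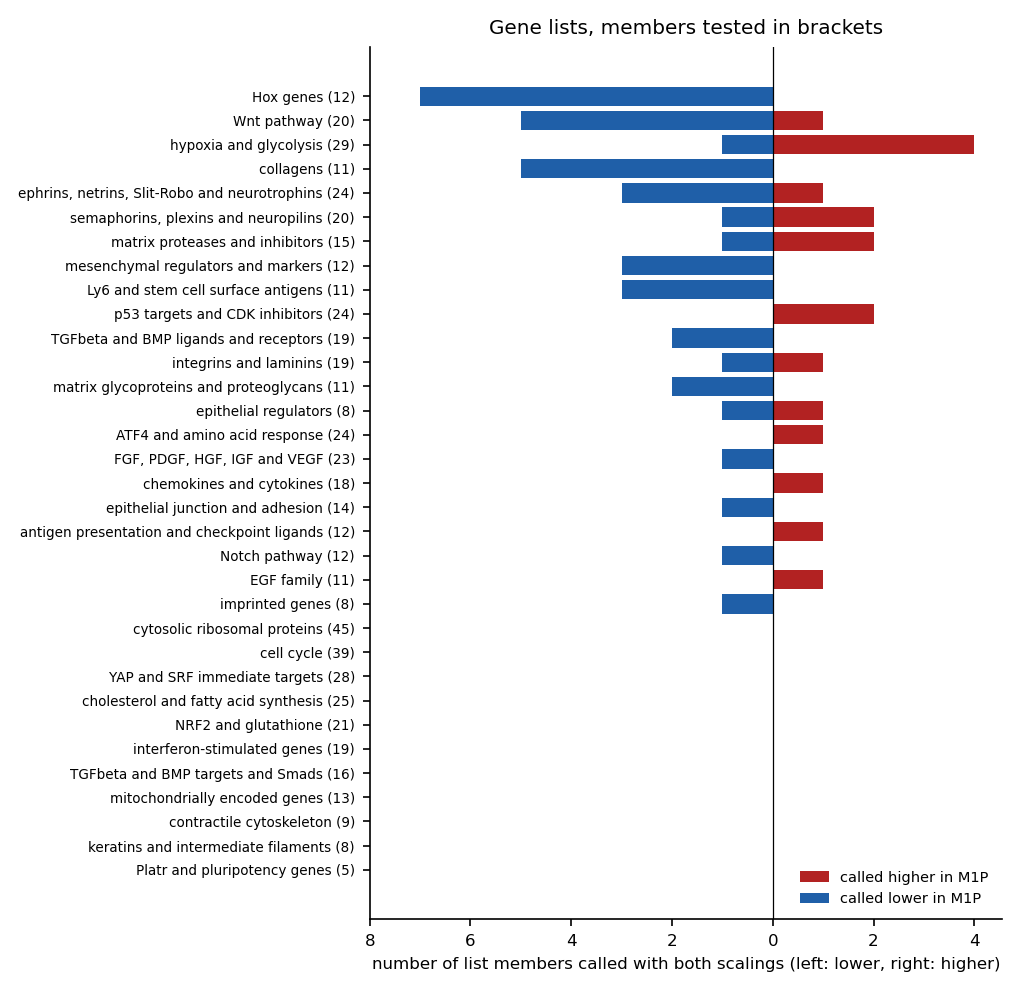
Number of members called with both scalings in each gene list, lower in M1P to the left (blue) and higher to the right (red), with the number of members tested in brackets. The Hox list reaches 7 lower, the Wnt and collagen lists 5 lower, and the hypoxia list 4 higher.

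The host of the tumor was also a mouse, so reads from host cells would be counted in the same genes, and in bulk RNA fewer cells of a type and less RNA per cell cannot be told apart. Marker levels were read for the cell types a tumor holds. Of 14 endothelial markers 0 reached the level for testing, and their sums were 1.73 and 1.31 CPM in E1KD and 1.71 and 1.44 CPM in M1P. Of 18 macrophage and leukocyte markers 10 were under 0.1 CPM in all 4 libraries, the pan-leukocyte gene Ptprc at most 0.0709 CPM among them, and their sums, which are mostly Cd14, were 106 and 92.4 CPM in E1KD and 92.9 and 96.5 CPM in M1P. Lyz2, a lysozyme of myeloid cells, was the 1 called, from 0.276 and 0.166 CPM to 3.23 and 2.87 CPM. Csf1r and Laptm5, named after their values were seen, went the other way. Csf1r had 1.65 and 1.02 CPM in E1KD and 0.108 and 0.135 CPM in M1P, and Laptm5 1.44 and 1.28 CPM and then 0.384 and 0.195 CPM. Of the 6 tested, 3 were higher and 2 lower at an unadjusted p under 0.05 (limma). Of 14 fibroblast markers 11 were under 0.1 CPM in all 4 libraries, Col1a2 was at 0 in all, and the sums, mostly Gsn, were 48.2 and 24.3 CPM in E1KD and 18.0 and 17.5 CPM in M1P. No marker of pericytes or of skeletal muscle reached the level for testing, and in the adipocyte and the Schwann cell and neuron lists 1 each did (Pparg and Mbp), and neither was called with both scalings. The lines matched their label as mammary epithelium in part. Krt8 and Krt18, keratins of luminal cells, lay between 996.6 and 1683 CPM in the 4 libraries, with a near copy of Krt8 at up to 1468 CPM. Of 17 luminal markers 9 were under 0.1 CPM in all 4 libraries and 6 of these were at 0 in all, the epithelial adhesion gene Epcam among them. Of 6 luminal markers tested Foxa1 and Csn3, a milk casein, rose and Cdh1 fell. Of 12 basal markers 3 were tested and Lgr5 fell.

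Grouped by chromosome, a choice made after the values were seen, the fold changes were not spread evenly. Medians were taken on the median-of-ratios scale over protein-coding genes of at least 5 CPM. Chromosome 14 had a median log2 fold change of 0.54 over 294 genes, and 91.2% of them were above 0. The medians of the other chromosomes lay between -0.16 and 0.15. Relative to the other autosomes, the genes of chromosome 14 were 1.52-fold higher in M1P than in E1KD. Measured in each library against its other autosomes and the mean of the 4 lines, the median was -0.30 and -0.31 in E1KD, 0.30 and 0.30 in M1P, 0.35 and 0.34 in L1P and -0.32 and -0.32 in NMuMG. The duplicates of each line lay close together, and M1P and L1P stood above both earlier lines. With the deposited scaling the median was 0.34 and 81.3% of the genes were above 0. These values cover the whole chromosome, and the earlier lines differed along it. From 20 to 40 Mb NMuMG was at -0.70 and -0.70 and E1KD at -0.01 and -0.06. From 40 to 60 Mb NMuMG was at -0.19 and -0.21 and E1KD at -0.46 and -0.40. On the median-of-ratios scale the median log2 fold change was 0.19 over 23 genes before 20 Mb and 0.56 over 271 genes beyond.

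Chromosome 7 was split at 60 Mb, a cut chosen after the values were seen. Up to 60 Mb the median was -0.21 over 311 genes, with 27.97% above 0, and from 60 Mb to the end it was 0.32 over 382 genes, with 86.6% above 0. Relative to the other autosomes, the later part was 1.27-fold higher in M1P than in E1KD, and L1P had values of 0.18 and 0.20 where M1P had 0.18 and 0.19 and E1KD -0.14 and -0.17. Of 132 windows of 20 Mb with at least 20 genes, 7 had a median over 0.3, all of them on chromosomes 7 and 14, and 0 had one under -0.3. The highest median of the 120 windows on other chromosomes was 0.26.

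**Figure D5:**
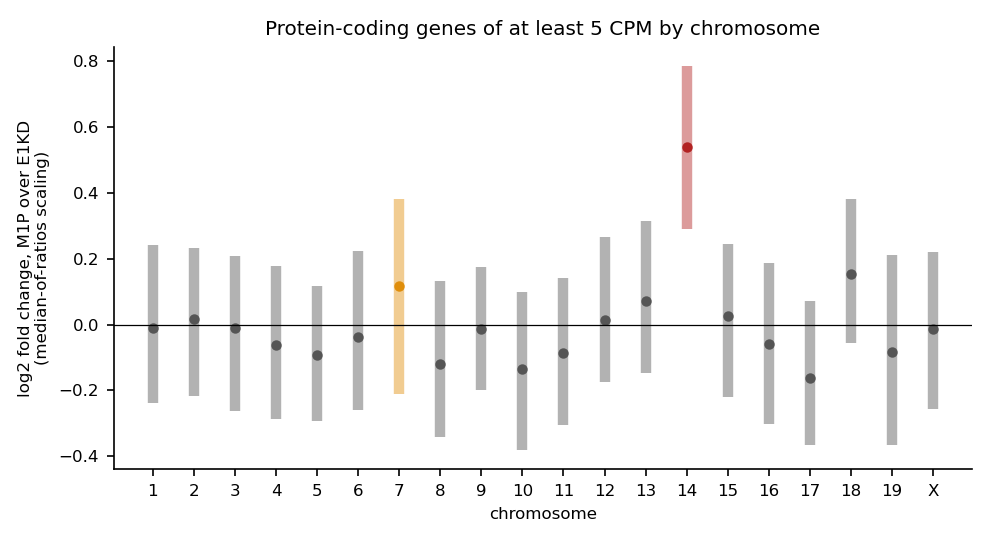
Log2 fold change of M1P over E1KD by chromosome, on the median-of-ratios scale, for protein-coding genes of at least 5 CPM. Points are medians and bars run from the lower to the upper quartile, and chromosome 14 (red) has a median of 0.54 with its lower quartile at 0.29, while chromosome 7 (orange) has the widest bar.

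The called genes of these chromosomes followed in part. Of 508 genes tested on chromosome 14, 28 rose, which is 5.51% against 1.39% of all genes, and 5 fell. The genes given here are examples, named after their values were seen, and stand for no common function. Bnip3l, a mitophagy receptor related to Bnip3, had 22.3 and 18.8 CPM in E1KD and 64.0 and 61.9 CPM in M1P. Ero1l, the oxidase that forms disulfide bonds in the endoplasmic reticulum, had 17.6 and 15.9 CPM in E1KD and 54.8 and 50.2 CPM in M1P. Lmo7, an adaptor at cell junctions, had 80.1 and 54.8 CPM in E1KD and 178 and 182 CPM in M1P, and Ctsb, the lysosomal protease cathepsin B, 119.8 and 96.8 CPM and then 216 and 224 CPM. Those that fell included Scara3, from 14.6 and 12.011 CPM to 0.0524 and 0.142 CPM, and the Wnt receptor Fzd3, from 3.72 and 3.09 CPM to 0 reads in both M1P libraries. Of 1059 genes tested on chromosome 7, 22 rose (2.08%, against 1.39% of all genes) and 16 fell. Of 500 genes tested before 60 Mb 2 rose and 10 fell, and of 559 from 60 Mb on 20 rose and 6 fell. Both parts thus held calls in both directions. Of all genes tested 2.08% fell, and the decreases before 60 Mb were near that share. Bnip3, Serpinh1, Adam8 and the tetraspanin Cd81 (66.3 and 48.0 CPM, then 119.6 and 119.5 CPM), which rose, lie in the later part, as do Shank2 and Fgfr2, which fell, while Peg3 and Usp29, which fell, lie in the earlier part.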

How the data were processed

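The study sequenced RNA on a HiSeq2500, and the authors aligned single reads with Bowtie2 (2.2.5 in the submitters' processing notes) to GRCm38.p6 and quantified M18 annotation genes in Partek. The deposited values are CPM with an offset of 0.0001 on every value, which was subtracted. Between 92.3% and 93.1% of low values in the 4 libraries were whole multiples of 1 read. Depth limits the precision of low genes, and floors of 3 reads cover counting error only.

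Genes of at least 1 CPM in 2 of the 4 libraries were tested as log2(CPM + 1), a scale that understates changes of low genes, with limma 3.58.1 (R 4.3.3, eBayes with a trend) over all 20 libraries with 10 condition means. Tested on simulated data, the fit called 199 of 200 changed and 2 of 14031 unchanged genes. How it performs on duplicates as far apart as those of E1KD was not tested. The SD of the log2 ratio between duplicates was 0.37 in E1KD and 0.09 in M1P, and the median ratio in E1KD was 0.32. Near-identical transcripts were found with BLAST 2.17.0. The members and gene lists were chosen with earlier results of these data known.

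Genes were named by a fixed rule. It takes Pcbp1, Lncenc1 and Sema4f, the 10 largest increases and decreases with a higher mean of at least 5 CPM and libraries that do not overlap, and the 5 largest in each direction among noncoding genes. From each list it takes up to 5 called members and the 2 most abundant not called. Other names were chosen after their values were seen, and most are marked so. Those not marked where they appear are Rn18s-rs5, Akr1b3, Fzd1, the overlapping gene AC114005.5 and the cell type markers Ptprc, Col1a2 and Epcam. The alternatives changed the scaling, the pseudocount, the filter, the libraries fitted, the call rule and the replicate block, and left out each replicate. Samples were grouped by their titles. Some named items are not reported here.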

Additional observations from a re-analysis of the deposited data

How the results depend on the processing

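The number of increases depended on the scaling and the number of decreases on the E1KD libraries. Against 198 higher with the deposited scaling, 310 were higher with median-of-ratios factors, 312 with equal sums over genes and 304 with median-of-ratios factors and only the 4 libraries. A pseudocount of 0.1 gave 937 calls with 345 higher, and a mean of at least 5 CPM gave 344 of 11047 genes with 114 higher and 230 lower, where fewer genes were tested. Leaving out 1 replicate gave 568 to 1835 calls, 189 to 276 higher and 292 to 1646 lower. The extremes of 1835, 189 and 1646 came without E1KD replicate 2, and those of 568, 276 and 292 without E1KD replicate 1. The cause was not tested.

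With the replicate number as a block, 604 genes were called (198 higher and 406 lower), and 608 with median-of-ratios factors, 310 of them higher. The numbers did not pair the samples: deviations of same-numbered E1KD and M1P libraries correlated at -0.088. An alternative added after seeing the data, without E1KD replicate 1 and with median-of-ratios factors, gave 560 calls. Of 83 named genes called with both scalings, 76 were called under every alternative in which they were tested. The others were Col4a4, Adam8, Mmp13, Sema4a, Mdm2, Aldoc and Pdk1, and 0 of the 83 changed direction. Named genes that were not called could change sign. Pkm did so, from -0.16 with the deposited scaling to 0.06 with median-of-ratios factors. Some alternatives left genes out: 51 of the 83 were tested with a mean of at least 5 CPM and 72 with protein-coding genes alone. With 2 libraries of 1 line in each group, the tests cover the spread of libraries and not of tumors.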
